A study of Homo sapiens with 45 samples.

Results

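SK-N-BE(2)C cells kept in palbociclib for 7 d were compared with cells of the same line kept in it for 24 h. The comparison takes 5 RNA-seq libraries at 24 h and 5 at 7 d, which are 10 of the 45 libraries of the series, and asks what changed in RNA levels while the drug stayed on. SK-N-BE(2)C is an established human neuroblastoma line of the adrenergic type, with an amplified MYCN gene and loss of 1p. Both groups carry this genotype and both received palbociclib (PB) at 1 μM. The 5 untreated control libraries of the line were sequenced beside them and were collected with the 24 h samples, so that 7 d differs from 24 h in days in culture as well as in days of drug. By the methods of the study, replicates of a line were separate platings at different passages. IMR-32 and SH-SY5Y, also adrenergic neuroblastoma lines, were treated for 24 h and 5 d, again with 5 replicates each.

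PB blocks the kinases CDK4 and CDK6. With a D-type cyclin these kinases phosphorylate RB, which otherwise holds back the E2F transcription factors that switch on genes for DNA synthesis and division. Neuroblastoma arises from the sympathoadrenal lineage of the neural crest, and its adrenergic cells keep the transcription factor circuit of sympathetic neuroblasts (PHOX2A, HAND2, GATA3 and others) and part of the catecholamine pathway. The question behind the 7 d samples is which neuronal genes such cells take up when the cycle is held back for days.

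Libraries held 16579374 to 25441812 counts over genes at 24 h and 15837764 to 23790619 at 7 d. Levels are given below as CPM, the counts of a gene divided by the total count of its library and scaled to a common size. TMM factors entered the fits but not these levels. Values are always in the order of replicates 1 to 5. Adrenergic genes were high: the lowest value of CHGA, PHOX2A, HAND2, GATA3, ISL1, TH and DBH in any library of the line was 87.4 CPM (ISL1), while of 7 mesenchymal markers YAP1 and FOSL1 reached at most 0.631 and 0.970 CPM. The other mesenchymal markers were measured, with VIM at 201 to 637 CPM over the 15 libraries, FN1 at 27.6 to 220.3, CD44 at 58.2 to 111, TWIST1 at 39.8 to 99.9 and SNAI2 at 0.821 to 14.5 CPM. Replicates of a group were not equally far apart. By the chi-square of their counts over genes, divided by its degrees of freedom, replicates 3, 4 and 5 at 24 h differed by 1.69 to 2.42 and the other pairs at 24 h by 7.05 to 23.6, while replicates 4 and 5 at 7 d differed by 5.60 and the other pairs at 7 d by 19.3 to 77.8. No pair was within sampling noise. The labels do not say whether the close libraries share a culture, so the p-values below rest on the spread between these libraries, part of which may be technical, and the comparison of 7 d with 24 h was also computed with the close libraries summed to 1 sample. The sources used here do not give the strand that was counted. Of the 171 genes examined singly, 66 share exon bases with a gene on the other strand, and their values are uncertain to that extent; over 500 bases are shared by CDK4, CDKN2A, E2F5, FOXM1, CSPG4, ITPR3, SLC8A1, TUBB6, HAND2, ATP5F1E, HMGCS1, SLC7A11, VIM, NID2, HSPG2, FGFR1 and MGAT4C.

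Of 29159 genes, 14055 had enough counts to be tested. A gene is called below when edgeR's quasi-likelihood test gave an adjusted p under 0.05 (Benjamini-Hochberg, over the 14055 genes) and the log2 fold change of 7 d minus 24 h was beyond 0.5 in size. By this measure 4488 genes (31.9% of those tested) were called, 2465 (17.5%) higher and 2023 (14.4%) lower at 7 d. The median log2 fold change of all tested genes was 0.01. In 5673 genes (40.4%) the 5 values at 7 d did not overlap the 5 values at 24 h, with 2681 (19.1%) higher and 2992 (21.3%) lower. These shares are the background against which the counts of each gene list are given. When the change was tested against 0.5 itself, with edgeR's glmTreat, 2425 genes passed, 1370 higher and 1055 lower.

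**Figure D1:**
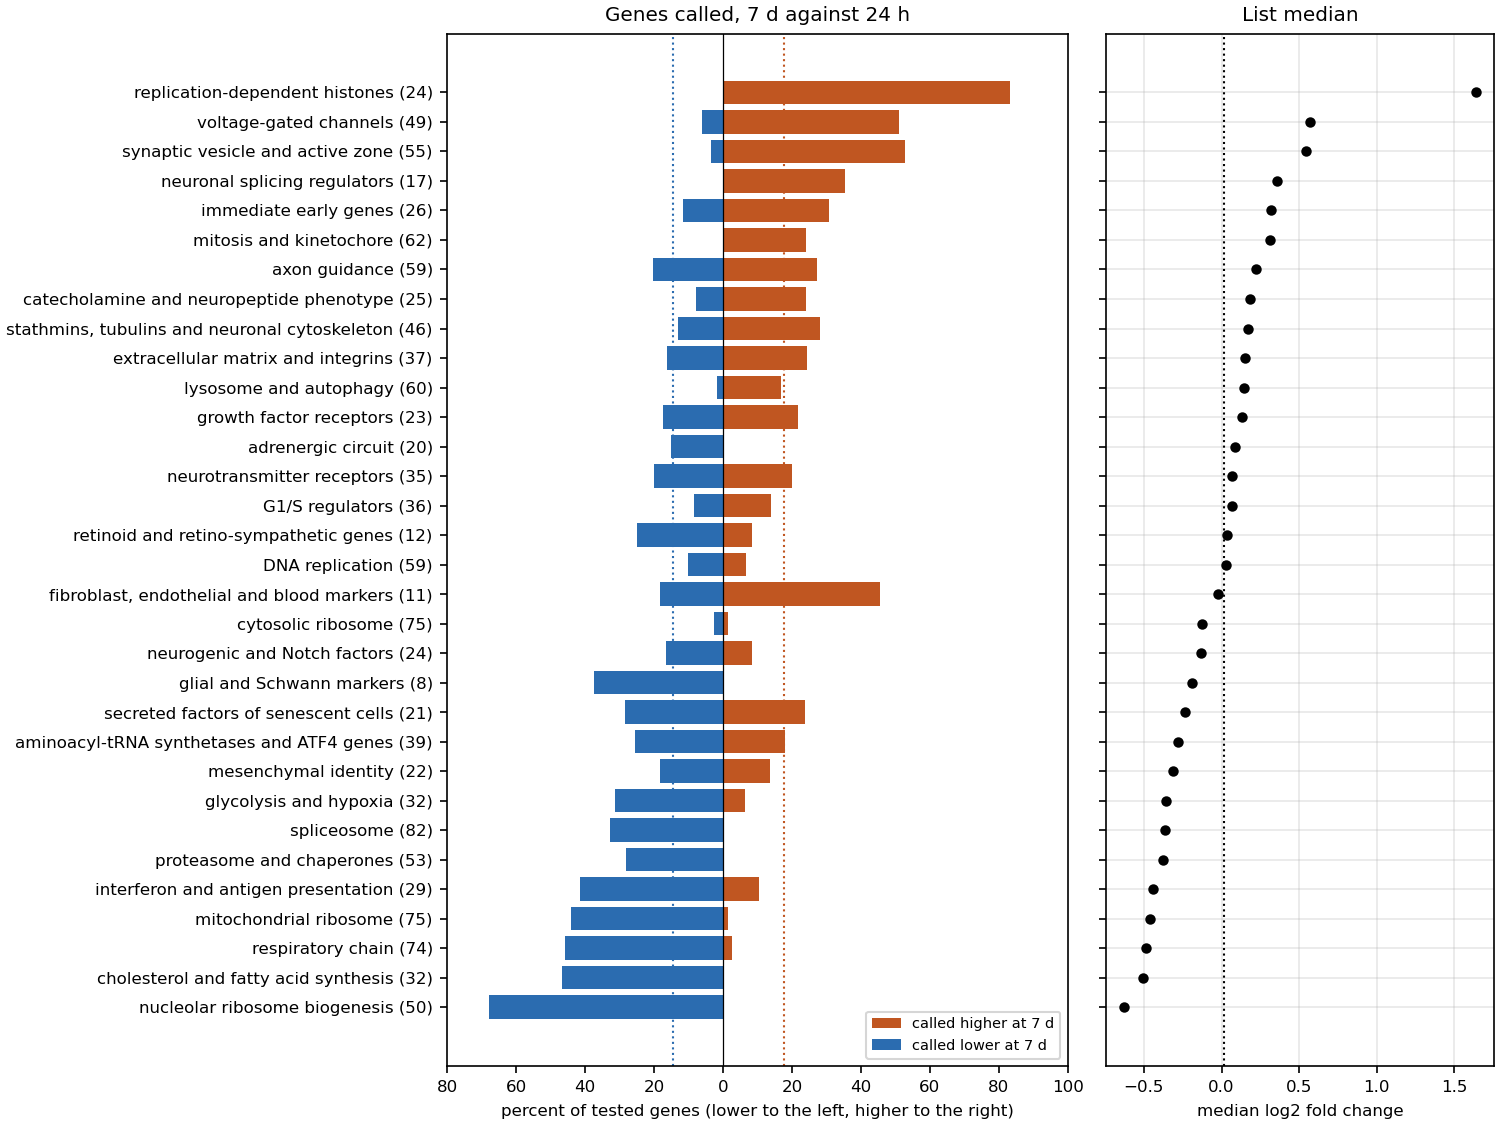
Gene lists at 7 d against 24 h. Bars give the percent of the tested members of each list called higher (right) and lower (left), with the number tested in brackets and the share of all tested genes as dotted lines; points give the median log2 fold change of the list, with the median of all tested genes dotted. Replication-dependent histones have the highest median, 1.64, and nucleolar ribosome biogenesis the lowest, -0.63.

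The 12 largest rises, taken among called genes with at least 5 CPM in the higher group and no overlap between the groups, all began below 5 CPM at 24 h. NPTX1 (ENSG00000171246.7_9, chr17:78440634-78451643 on GRCh37), which encodes neuronal pentraxin 1, a secreted protein that gathers AMPA receptors at synapses, measured 1.70, 1.38, 1.81, 1.84 and 2.13 CPM at 24 h and 21.2, 128, 193, 41.6 and 46.1 CPM at 7 d. The 5 libraries at 7 d spread widely, with replicates 2 and 3 far above replicate 1. The log2 fold change was 5.59 ± 0.57 (SE, n = 5 against 5; adjusted p = 1.40e-06, edgeR). Control libraries held 0.817 to 1.41 CPM.

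CHRD, which encodes chordin, a secreted antagonist of bone morphogenetic proteins (BMPs), rose from 0.0999, 0.314, 0.543, 0.279 and 1.02 CPM to 22.7, 50.05, 18.3, 7.20 and 8.59 CPM (log2 fold change 5.54 ± 0.66, adjusted p = 5.98e-06, edgeR). Replicate 2 was the highest at 7 d and replicates 4 and 5 the lowest. OLFML2B, a gene of an olfactomedin-like secreted protein, rose from 0.194 to 0.550 CPM to 5.50 to 20.4 CPM, a change of 4.61 ± 0.38. ZCCHC12, a zinc finger coactivator of BMP-responsive transcription, stood at 0.799, 0.786, 2.65, 1.84 and 2.47 CPM at 24 h and at 13.2, 38.4, 36.4, 31.5 and 32.2 CPM at 7 d, where replicate 1 was well below the other 4. LIX1 reached 2.53, 34.01, 18.96, 3.57 and 4.35 CPM from 0.350 to 0.725 CPM, with replicates 2 and 3 apart from the others; its log2 fold change of 4.38 ± 0.71 dropped to 3.62 without replicate 2 of 7 d.

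In other leading rises the libraries were close. SHC2, an adaptor of receptor tyrosine kinases that is used mainly in neurons, measured 4.99, 3.62, 3.02, 3.29 and 3.83 CPM at 24 h and 44.3, 58.7, 62.8, 57.4 and 55.8 CPM at 7 d, a 14.7-fold difference in the fit (log2 fold change 3.88 ± 0.15, adjusted p = 9.46e-11, edgeR). All libraries at 7 d lay within a narrow band. RAB6B, a neuronal Rab GTPase of Golgi traffic, behaved alike, with 2.50, 3.50, 1.87, 1.67 and 1.46 CPM and then 25.2, 30.7, 20.98, 23.9 and 25.7 CPM. FSTL4, AOC2, FOXD4, FAM131B and C2CD4C complete the 12 largest rises, with log2 fold changes of 4.02, 3.67, 3.24, 3.18 and 4.94.

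**Figure D2:**
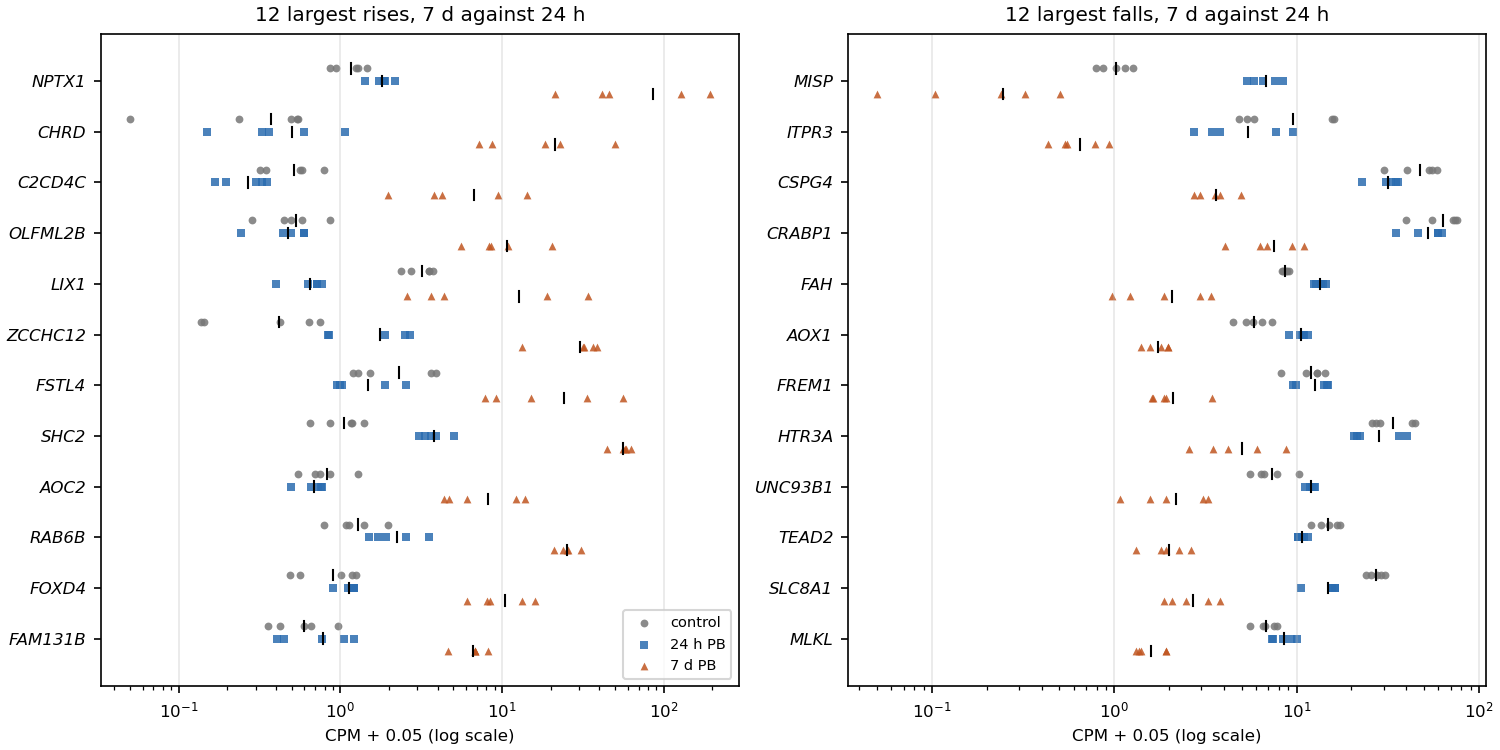
The 12 largest rises (left) and 12 largest falls (right) between 24 h and 7 d, as CPM + 0.05 on a log axis, 1 point per library, with a bar at the mean of each group. The 7 d points (triangles) are clear of the 24 h points (squares) because the genes were chosen so; MISP is higher at 24 h than in the controls and lowest at 7 d.

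The largest falls included genes that had been raised at 24 h. MISP, which encodes an actin-binding protein that positions the mitotic spindle, had 1.22, 0.746, 1.10, 0.817 and 0.973 CPM in the controls, 6.49, 7.55, 5.31, 5.80 and 8.39 CPM at 24 h and 0.189, 0.0540, 0, 0.454 and 0.275 CPM at 7 d. It was thus above all controls at 24 h and below all of them at 7 d (log2 fold change of 7 d minus 24 h -5.16 ± 0.40, adjusted p = 3.75e-08, edgeR; -5.74 without replicate 4 of 7 d). FAH, of tyrosine breakdown, AOX1, an aldehyde oxidase, and UNC93B1, which carries Toll-like receptors to endosomes, moved in the same manner: their means at 24 h were 13.4 ± 0.826, 10.5 ± 0.944 and 11.99 ± 0.584 CPM (± SD), against 2.03 ± 1.06, 1.70 ± 0.257 and 2.13 ± 0.961 CPM at 7 d. MLKL, the effector of necroptosis, fell from 7.29, 7.35, 9.29, 9.98 and 8.34 CPM to 1.33, 1.35, 1.26, 1.87 and 1.87 CPM.

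Other falls began from a level at 24 h that was not above the controls as a group. CSPG4, the NG2 proteoglycan of the cell surface, fell from 30.8, 22.8, 35.1, 33.1 and 36.1 CPM to 3.54, 2.70, 3.74, 4.93 and 2.92 CPM (-3.15 ± 0.21, adjusted p = 1.50e-08, edgeR). CRABP1, a carrier of retinoic acid in the cytoplasm, fell from 46.1, 35.1, 59.2, 59.6 and 63.1 CPM to 6.82, 3.995, 6.26, 10.9 and 9.36 CPM. In both genes the lowest libraries at 24 h were replicates 1 and 2. ITPR3, a calcium channel of the endoplasmic reticulum, fell from 9.54, 7.63, 3.38, 2.68 and 3.73 CPM to 0.884, 0.486, 0.504, 0.737 and 0.386 CPM, and here replicates 1 and 2 were the highest at 24 h. HTR3A, a serotonin-gated ion channel, FREM1, of the basement membrane, TEAD2, a partner of YAP, and SLC8A1, a sodium-calcium exchanger, fell too, with log2 fold changes of -2.54, -2.63, -2.48 and -2.47.

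Synaptic genes rose as a group. Of 65 genes of synaptic vesicles and the active zone, 55 were tested, of which 29 were called higher and 2 lower at 7 d; the median log2 fold change was 0.54. Against control, with libraries shared with that comparison, the same list had a median of 0.36 at 24 h and 0.81 at 7 d. SYT5, a calcium sensor of vesicle release, measured 18.6, 18.5, 24.8, 22.4 and 24.6 CPM at 24 h and 60.7, 78.9, 78.8, 76.003 and 71.4 CPM at 7 d (1.74 ± 0.12, adjusted p = 1.85e-08, edgeR). SYNGR3, a synaptic vesicle membrane protein, rose from 5.59, 4.68, 2.23, 3.51 and 3.78 CPM to 25.1, 24.02, 13.4, 17.02 and 16.5 CPM. Replicate 3 was the lowest of both groups in SYNGR3 and the groups did not overlap in either gene.

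SYP (synaptophysin) went from 242, 233, 226, 230.2 and 239 CPM to 485, 488, 438, 436 and 462 CPM, SYN1 (synapsin I) from 64.4 to 74.8 CPM to 129 to 148 CPM and SYT1, the calcium sensor of fast release, from 428 to 497 CPM to 887 to 1032 CPM. Their log2 fold changes were 0.97 ± 0.06, 0.94 ± 0.07 and 1.005 ± 0.05, with little spread between libraries. SYT13 had the largest rise of the list, 2.54 ± 0.73, from 0.599, 0.590, 0.0603, 0.0558 and 0 CPM to 0.821, 2.05, 1.85, 2.38 and 1.21 CPM, but its call was lost when close libraries were summed (adjusted p = 0.0656, edgeR). The 2 members that fell were UNC13B, a vesicle priming factor, which had 134, 129, 139, 144 and 141 CPM at 24 h and 77.4, 84.7, 82.6, 76.4 and 75.2 CPM at 7 d, and SNCB (beta-synuclein), which went from 0.502 to 2.10 CPM to 0.0551 to 0.442 CPM.

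Channels moved with the synaptic genes. Of 72 voltage-gated and related channels found, 49 were tested, 25 were called higher and 3 lower, with a median of 0.57. KCNMB4, a subunit that shapes the gating of calcium-activated potassium channels, stood at 0, 0.0393, 0.0603, 0.167 and 0.194 CPM at 24 h and at 1.89, 2.65, 2.31, 1.87 and 1.43 CPM at 7 d. SCN7A, a sodium channel of the voltage-gated family, went from 0.0393 to 0.302 CPM to 2.15 to 4.41 CPM and KCNA2, a delayed rectifier potassium channel of axons, from 0.243 to 0.543 CPM to 1.64 to 4.59 CPM. These 3 are low in every library, and their log2 fold changes of 4.39, 4.03 and 3.23 rest on few counts at 24 h. KCNK10, a background potassium channel, fell from 9.04, 8.96, 6.76, 6.91 and 6.84 CPM to 4.86, 2.27, 2.52, 3.57 and 3.19 CPM. KCNH6 had a log2 fold change of -0.63 ± 0.19, but without replicate 3 of 7 d it was -0.46 and not called.

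Neurotransmitter receptors were mixed: 35 of 63 were tested, with 7 higher, 7 lower and a median of 0.07. The median was 0.085 to 0.382 when each library was left out in turn, highest without replicate 2 of 24 h, and without replicate 1 of 24 h 11 were called higher (median 0.237). GRIA1, an AMPA receptor subunit, had 21.9, 22.8, 13.6, 13.3 and 12.6 CPM at 24 h and 47.04, 102, 35.9, 23.4 and 30.1 CPM at 7 d, where replicate 2 was far above the other libraries. GABRQ, of the GABA-A receptors, rose by 1.01 ± 0.20 and CHRM1, a muscarinic receptor, by 0.67 ± 0.14.

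Of 17 neuronal regulators of splicing tested, 6 were called higher and none lower, with a median of 0.36. The CELF family of RNA-binding proteins led: CELF4 rose from 23.9, 28.1, 22.7, 22.4 and 19.2 CPM to 48.2, 64.8, 56.5, 54.1 and 58.8 CPM, CELF6 from 1.06 to 1.78 CPM to 3.60 to 7.10 CPM and CELF5 from 0.250 to 1.23 CPM to 1.39 to 2.65 CPM. No library at 7 d fell to the level of 24 h in these genes.

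Genes of the neuronal cytoskeleton and of axon guidance moved both ways. Of 46 stathmins, tubulins and other cytoskeletal genes, 13 were higher and 6 lower (median 0.17); the count of lower genes was 2 without replicate 2 of 7 d, 3 without replicate 3 of 7 d and 3 without replicate 2 of 24 h. STMN4, a neuronal stathmin that binds tubulin, had 7.79, 7.47, 10.3, 9.37 and 10.5 CPM at 24 h and 48.05, 44.7, 64.2, 77.1 and 74.6 CPM at 7 d, a 6.76-fold difference in the fit (2.76 ± 0.16, adjusted p = 4.21e-09, edgeR). DCX, doublecortin, a microtubule protein of migrating neurons, went from 79.7, 68.2, 33.6, 33.3 and 31.2 CPM to 248, 235, 189, 185 and 202 CPM; replicates 1 and 2 were the highest in both groups. DPYSL4, of the collapsin response mediators, rose from 32.3 to 38.9 CPM to 90.3 to 155 CPM. TUBB6, a tubulin made in many non-neuronal cells, fell from 67.1 to 80.2 CPM to 29.4 to 55.6 CPM.

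Of 59 axon guidance genes, 16 were higher and 12 lower (median 0.22, which was 0.136 without replicate 5 of 24 h and 0.116 with close libraries summed). PLXNA2, a receptor for semaphorins, had 81.1, 90.1, 105, 100.5 and 87.7 CPM at 24 h and 396, 334, 219, 288 and 361 CPM at 7 d. NRP2, a coreceptor for the same ligands, went the other way, from 127, 107, 105, 109.5 and 100.8 CPM to 25.95, 24.9, 32.6, 34.9 and 27.8 CPM (-1.92 ± 0.10, adjusted p = 1.32e-09, edgeR). In both genes the groups were far apart. NEO1 (neogenin) and SEMA6C rose by 1.93 ± 0.19 and 1.52 ± 0.19, while the secreted ligands SEMA3D and SLIT1 fell (-1.43 ± 0.13 and -1.65 ± 0.41).

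The leading rises of the catecholamine and neuropeptide phenotype were in genes of dense-core granules. Of 25 tested genes of this list, 6 were called higher and 2 lower, with a median of 0.18 that was -0.06 without replicate 1 of 7 d; the count of lower genes was then 5, and it was 4 without replicate 4 or without replicate 5 of 7 d. CHGB, chromogranin B, which packs hormone granules, had 1290.3, 1271, 848, 885 and 879 CPM at 24 h and 3675, 3109.9, 2081, 3209 and 3482 CPM at 7 d (1.58 ± 0.18, adjusted p = 4.06e-06, edgeR), after 340.3 to 526 CPM in the controls. SCG2, secretogranin II, went from 805, 813, 955, 965 and 932 CPM, at the level of the controls, to 1933, 3211, 2849.6, 2141 and 2183 CPM. CPE, which trims peptide hormones, rose from 0.150 to 0.437 CPM to 1.35 to 2.61 CPM.

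TH and DBH, enzymes of noradrenaline synthesis, were not called. TH had 288, 276, 295, 312 and 327 CPM at 24 h and 227, 134, 271, 389 and 328 CPM at 7 d, and DBH had 1124, 1194, 721, 707 and 704 CPM and 1045, 556, 373, 692 and 688 CPM. In both genes the libraries at 7 d spread more widely than those at 24 h and overlapped them, and the log2 fold changes were -0.16 ± 0.20 (adjusted p = 0.487, edgeR) and -0.42 ± 0.24 (adjusted p = 0.153, edgeR). Without replicate 1 of 7 d, DBH was called lower, at -0.65. NPY, neuropeptide Y, had 82.7, 104, 63.4, 61.3 and 61.1 CPM at 24 h and 219, 89.8, 74.7, 205 and 216 CPM at 7 d: replicates 1, 4 and 5 were above all 24 h libraries and replicates 2 and 3 were not. Its change of 1.10 ± 0.30 lost its call with close libraries summed (adjusted p = 0.106, edgeR).

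Of the 20 transcription factors of the adrenergic circuit, 3 were called lower and none higher, with a median of 0.09. MYCN, the amplified oncogene, had 5099.7, 4427, 4506, 4673 and 5079 CPM at 24 h and 2339.6, 1861, 2520.2, 2633 and 2455 CPM at 7 d, after 3325 to 4428 CPM in the controls; every library at 7 d was below every control and every 24 h library (-1.02 ± 0.10, adjusted p = 3.11e-07, edgeR). SOX11 fell from 51.7, 52.7, 52.96, 54.9 and 52.6 CPM to 34.03, 19.2, 29.2, 30.4 and 31.2 CPM, again without overlap. HAND2 and GATA2 had small differences of 0.26 ± 0.07 and 0.29 ± 0.08, under the size limit.

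The retinoid list, 12 genes tested, gave 1 rise and 3 falls. SOX4 rose by 0.58 ± 0.08, and beside CRABP1 its paralog CRABP2 fell from 106, 98.2, 125, 121 and 129 CPM to 57.6, 43.9, 56.3, 69.99 and 85.04 CPM. RET, the receptor of the GDNF family, had 893, 778, 1033, 1029 and 1007 CPM at 24 h and 769.9, 521, 564, 693 and 714 CPM at 7 d; its change of -0.55 ± 0.12 was -0.47 without replicate 2 and -0.49 without replicate 3 of 7 d, in both cases not called.

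Cell cycle genes had been lowered by 24 h and most stayed low. The medians against control were -2.26 at 24 h and -2.07 at 7 d for 62 mitosis and kinetochore genes, -1.53 and -1.46 for 59 DNA replication genes, and -0.78 and -0.48 for 36 G1/S regulators, 2 comparisons that share the controls. Between 24 h and 7 d, 15 mitosis genes were called higher and none lower (median 0.31), 4 replication genes were higher and 6 lower (median 0.03) and 5 G1/S regulators were higher and 3 lower (median 0.06). The count of lower G1/S regulators was 1 without replicate 2 of 24 h or without replicate 2 of 7 d, and 6 without replicate 1 of 7 d, where the list median was -0.01. In bulk RNA, fewer dividing cells and less RNA per dividing cell cannot be told apart.

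The mitosis genes rested on the spread between libraries at 7 d. Only 2 of the 15 did not overlap between the groups, and the count of higher genes was 8 without replicate 1 of 7 d, 25 without replicate 3 of 7 d, 9 without replicate 3 of 24 h and 3 with close libraries summed. MKI67, the proliferation marker Ki-67, had 626, 818, 762, 700.04 and 696 CPM in the controls, 57.04, 48.6, 25.3, 24.6 and 24.4 CPM at 24 h and 147, 26.6, 12.3, 87.2 and 83.1 CPM at 7 d. Replicates 1, 4 and 5 at 7 d were above all 24 h libraries, replicate 2 lay among them and replicate 3 below them, and the change of 0.97 ± 0.49 was not called (adjusted p = 0.106, edgeR), but it was without replicate 3 of 7 d. KIF20A, a mitotic kinesin, was also highest in replicates 1, 4 and 5, with 7.29, 5.90, 3.56, 3.90 and 3.49 CPM and then 30.6, 7.29, 4.58, 19.1 and 16.8 CPM, and lost its call with close libraries summed (adjusted p = 0.0622, edgeR). The 2 genes without overlap were NCAPH, a condensin subunit, at 23.3, 27.2, 19.5, 20.3 and 19.3 CPM and 40.2, 31.2, 30.4, 40.2 and 35.8 CPM, and SKA1, of the kinetochore, at 2.38 to 3.97 CPM and 5.43 to 11.2 CPM, against 18.6 to 20.7 CPM in the controls.

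**Figure D3:**
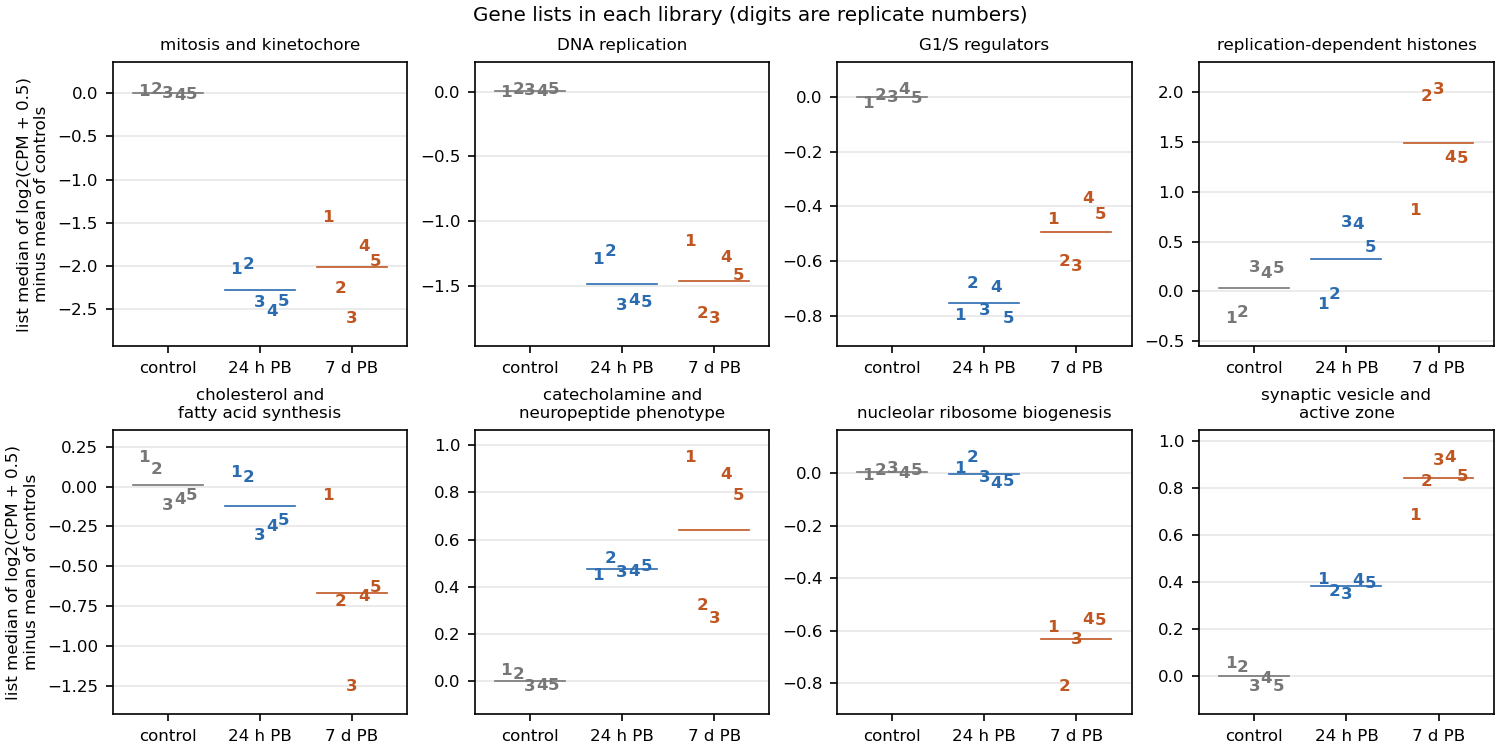
Levels of 8 gene lists in each library of the line: the median over the list of log2(CPM + 0.5) minus the mean of the controls, with digits for replicate numbers and lines at group means. At 7 d the mitosis list is highest in replicate 1 and lowest in replicate 3, the histone list is lowest in replicate 1, and the nucleolar and synaptic lists are clear of 24 h in all 5 libraries.

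The list medians show the same order of libraries at 7 d. Relative to the mean of the controls, the mitosis list stood at -2.04, -1.98, -2.42, -2.52 and -2.40 at 24 h and at -1.44, -2.26, -2.61, -1.78 and -1.95 at 7 d. The DNA replication list gave -1.15, -1.71, -1.75, -1.28 and -1.42 at 7 d. Replicate 1 was thus the highest and replicates 2 and 3 the lowest in both. Replicate 1 was also nearest to 24 h in cholesterol genes and histones, described below.

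Among the D-type cyclins, CCND1 and CCND3 were called higher, both near the size limit, and CCND2 had too few counts to be tested. CCND1, the cyclin partner of CDK4 and CDK6, had 1493, 1572, 1857, 1866 and 1899 CPM in the controls, 2649.7, 2856, 2982, 3058 and 2999 CPM at 24 h and 3746, 4576, 4267, 4321 and 4218 CPM at 7 d, a rise at each step. Its change of 0.53 ± 0.07 lost its call by the size limit without replicate 1 of 24 h or with no filter on low counts (0.49). CCND3 went from 34.3, 40.1, 35.8, 29.9 and 32.4 CPM to 59.2, 46.4, 38.6, 55.1 and 50.5 CPM, with a change of 0.52 ± 0.10. This change was under the limit without replicate 4 or 5 of 24 h or without replicate 1 or 4 of 7 d (0.44 to 0.49). It was also under the limit with close libraries summed (0.44) and with no filter (0.485). CDK4 and CDK6, the drug's targets, had changes of -0.36 ± 0.07 and -0.48 ± 0.19 that did not pass the limit; CDK6 was called lower without replicate 3, 4 or 5 of 24 h (-0.545 to -0.553) and without replicate 1 of 7 d (-0.658). RB1 had 100.3, 119, 94.4, 99.04 and 96.9 CPM and 146, 159, 118, 123 and 117 CPM.

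The inhibitors of cyclin-dependent kinases differed. CDKN2D (p19INK4D) had 9.41, 8.43, 7.93, 11.96 and 9.68 CPM in the controls, 3.996, 3.66, 3.20, 3.12 and 4.27 CPM at 24 h and 12.9, 13.6, 11.6, 9.53 and 10.6 CPM at 7 d: lowered at 24 h and back at the control level by 7 d (1.66 ± 0.14, adjusted p = 9.81e-08, edgeR). CDKN1A (p21) had 3.996, 4.60, 2.59, 1.39 and 1.75 CPM and then 28.3, 9.12, 4.08, 5.56 and 6.11 CPM, where replicate 1 stood far above the others; its change of 1.86 ± 0.53 was 1.07 without that library and lost its call with close libraries summed (adjusted p = 0.0543, edgeR). CDKN2A fell from 33.02, 31.4, 41.6, 38.1 and 42.5 CPM to 28.98, 23.97, 22.6, 25.01 and 25.7 CPM. FOXM1, a driver of mitotic genes, had 50.7, 61.04, 34.6, 35.2 and 35.99 CPM and then 121, 63.8, 38.5, 97.3 and 84.4 CPM, in the order of MKI67, and its change of 0.88 ± 0.25 lost its call with close libraries summed (adjusted p = 0.132, edgeR). The calls of E2F5 (-0.51 ± 0.08) and CDC25A (-0.53 ± 0.20) were also lost without single libraries: replicate 2 of 24 h or replicate 2 or 4 of 7 d for E2F5, which was also lost with other scalings and by DESeq2 (-0.491 to -0.497), and replicates 1 or 2 of 24 h or 2 or 3 of 7 d for CDC25A.

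Most replication genes, 49 of 59, were not called. The shares called higher (6.78%) and lower (10.2%) were both below those of all tested genes (17.5% and 14.4%). Among the higher ones, LIG1, the ligase that joins Okazaki fragments, had 9.54, 10.1, 8.14, 8.03 and 8.73 CPM and 22.6, 11.1, 13.7, 26.7 and 20.5 CPM. CDC7, a kinase that fires origins, had 26.3, 28.5, 33.5, 35.1 and 35.99 CPM and 63.3, 57.5, 51.95, 64.3 and 70.8 CPM, the latter at the level of the controls (51.7 to 66.1 CPM). POLD2, of DNA polymerase delta, fell from 179, 169, 174, 172 and 174 CPM to 90.5, 57.4, 57.6, 81.9 and 74.7 CPM (-1.27 ± 0.11, adjusted p = 8.63e-08, edgeR). TIPIN, of the fork protection complex, and POLE2, of polymerase epsilon, fell with no overlap (-0.94 ± 0.12 and -0.94 ± 0.21). The count of higher genes in this list was 8 without replicate 2 and 7 without replicate 3 of 7 d.

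Replication-dependent histone genes rose most of all lists. Their mRNAs as a rule carry no poly(A) tail and end just after a stem-loop that is bound by the stem-loop binding protein, and they are made mainly in S phase. The libraries here were made from RNA selected for poly(A) tails. Of 48 histone genes in the counts, 24 had enough counts to be tested, a filter that can favour genes that are high at 1 of the times; 20 of them were called higher and none lower, with a median of 1.64. Without the filter, 25 were called higher and the median was 1.36. Copies of these genes are near-identical, so the value of any single one is uncertain.

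H2BC21, a histone H2B gene, had 9.32, 8.78, 12.2, 13.2 and 13.5 CPM in the controls, 8.49, 10.3, 18.3, 18.7 and 17.7 CPM at 24 h and 23.8, 71.05, 87.4, 63.2 and 58.8 CPM at 7 d (2.05 ± 0.30, adjusted p = 3.85e-05, edgeR). H2AC6 had 10.8, 11.4, 24.01, 24.6 and 22.3 CPM and 41.1, 90.5, 107, 70.3 and 64.8 CPM, H1-2 had 4.60, 5.27, 9.05, 8.53 and 8.15 CPM and 13.6, 42.4, 38.2, 15.2 and 19.3 CPM, and H4C8 had 1.15, 1.34, 5.49, 4.24 and 5.43 CPM and 8.84, 26.7, 30.3, 16.6 and 20.3 CPM. In each of them replicates 2 and 3 were the highest at 7 d and replicate 1 the lowest, and replicates 1 and 2 were the lowest at 24 h. H4C4, H3C4 and H4C5 had the largest log2 fold changes of the list, 3.95 ± 0.65, 3.69 ± 0.53 and 2.67 ± 0.47, at under 1 CPM in every library at 24 h. The order of libraries at 7 d in histones, 0.81, 1.96, 2.02, 1.34 and 1.33 for the list median relative to the controls, was nearly the reverse of that in the mitosis list.

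On GRCh37, 46 of 47 located histone genes hold the stem-loop sequence, all 24 tested genes among them. In 12 of the 24 it reads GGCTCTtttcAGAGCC, with the 6 bases of each arm of the stem in capitals and the 4 bases of the loop in lower case. The gene models of 8 tested genes run on past the stem-loop, by 769 to 29195 bases, and all 8 were called higher. Another 16 end within 9 bases of it, and 12 of these were called higher. These models are those of GENCODE, and whether the deposited counts used models with the same ends was not tested. The stem-loop is shown for 4 of the genes above, in capitals from the first base of one arm to the last of the other, with 5 bases of each flank in lower case, as the sequence that both kinds of gene share.
H2BC21 (chr1:149857738-149857753, minus strand, model runs on by 1729 bases): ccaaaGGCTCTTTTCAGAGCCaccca
H2AC6 (chr6:26124897-26124912, plus strand, model runs on by 14432 bases): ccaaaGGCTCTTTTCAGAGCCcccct
H4C8 (chr6:26285359-26285374, minus strand, model runs on by 7522 bases): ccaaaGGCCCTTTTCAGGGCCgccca
H1-2 (chr6:26055972-26055987, minus strand, model ends after 4 more bases): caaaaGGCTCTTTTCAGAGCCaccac
Gene counts do not tell whether a read came from an mRNA that ends at the stem-loop or from one that runs on to a poly(A) site.

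Histone promoters share a letter pattern. In the RefSeq promoters on GRCh38.p14, taken as the 250 bases before the start, CCAAT (the core of the NF-Y motif, counted on either strand) was present in 81.8% of 22 tested histone genes and in 35.1% of 10018 tested genes. It was present in 73.6% of 53 mitosis genes, in 32.7% of 1494 genes called higher and in 36.1% of 1514 called lower. Lists that did not rise had it often too: 68% of 25 genes of cholesterol and fatty acid synthesis and 55.8% of 52 DNA replication genes. Base composition differed too: the median GC content was 42.4% in the histone promoters and 65.2% in those of all tested genes, and its part in these shares was not tested. Other letters were also more frequent in the histone promoters, with TTTGAA (the CHR element) in 36.4% against 8.06% and the E2F letters TTTGGCGC, TTTCCCGC or TTTCGCGC in 22.7% against 3.88%, on either strand. A match is a run of letters and not a bound site. The promoters of H2BC21 and H1-2 are shown because the genes rose together; CCAAT and its complement ATTGG are in capitals.
H2BC21 promoter (chr1:149886683-149886932, minus strand): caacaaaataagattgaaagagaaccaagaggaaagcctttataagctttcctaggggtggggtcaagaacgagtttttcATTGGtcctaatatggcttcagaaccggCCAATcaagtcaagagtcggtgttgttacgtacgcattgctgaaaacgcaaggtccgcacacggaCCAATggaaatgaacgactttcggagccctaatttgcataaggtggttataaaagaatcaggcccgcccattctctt
H1-2 promoter (chr6:26056471-26056720, minus strand): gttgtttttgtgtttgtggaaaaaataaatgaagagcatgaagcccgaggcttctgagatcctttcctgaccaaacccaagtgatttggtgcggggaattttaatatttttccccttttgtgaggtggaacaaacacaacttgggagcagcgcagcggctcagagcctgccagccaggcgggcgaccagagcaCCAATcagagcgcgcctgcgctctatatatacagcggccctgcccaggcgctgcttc
The match nearest to the start lies 73 bases before it in H2BC21, with 3 matches in all, and 53 bases before it in H1-2, with 1 match.

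Genes for making ribosomes fell late. Of 50 genes of nucleolar ribosome biogenesis, 34 were called lower and none higher at 7 d, with a median of -0.63, and 45 did not overlap and were lower. At 24 h the same genes had a median of -0.05 against control, and at 7 d of -0.69, so that the fall lies between the treated times. RRP9, a protein of the U3 snoRNP that processes pre-rRNA, had 55.4, 53.5, 57.4, 57.1 and 54.5 CPM in the controls, 59.2, 58.02, 60.3, 58.2 and 60.2 CPM at 24 h and 25.004, 19.003, 24.2, 27.8 and 26.7 CPM at 7 d (-1.28 ± 0.08, adjusted p = 5.74e-09, edgeR). UTP20, of the small subunit processome, went from 164, 176, 154, 161 and 155 CPM to 75.6, 58.1, 61.1, 79.7 and 88.9 CPM and NAT10, which acetylates rRNA, from 72.3, 72.6, 72.9, 69.8 and 72.6 CPM to 33.5, 31.9, 35.01, 38.4 and 37.9 CPM. The list median relative to the controls was -0.59, -0.81, -0.63, -0.56 and -0.56 in the libraries at 7 d, all below those at 24 h. The proteins of the cytosolic ribosome itself did not follow: of 75 genes, 1 was called higher and 2 lower, with a median of -0.13.

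Spliceosome genes fell in 2 steps. Their median was -0.41 at 24 h and -0.71 at 7 d against control, and between the treated times 27 of 82 were called lower and none higher (median -0.37; 54 lower without overlap). SNRPA1, of the U2 snRNP, had 104, 105, 99.9, 98.5 and 99.97 CPM and 58.2, 24.7, 27.4, 47.3 and 43.3 CPM. TRA2B and SRSF7, SR proteins that promote exon inclusion, fell from 184, 189.7, 158, 156 and 160.2 and 173, 189, 152, 150.4 and 161 CPM to 127, 69.5, 56.997, 101.4 and 92.5 and 128, 64.9, 55.9, 96.3 and 90.2 CPM. In all 3 genes replicate 1 was the highest library at 7 d and replicates 2 and 3 the lowest, without reaching 24 h.

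Nuclear genes of mitochondria fell between 24 h and 7 d. Of 75 mitochondrial ribosome genes, 33 were lower and 1 higher (median -0.46), and of 74 respiratory chain genes 34 were lower and 2 higher (median -0.49). Their medians at 24 h against control were -0.07 and 0.05. MRPL23 had 40.96, 36.9, 33.4, 38.6 and 35.5 CPM and 18.1, 7.77, 7.44, 14.1 and 12.2 CPM, ATP5MC1, of the ATP synthase ring, had 95.9, 98.6, 96.4, 97.1 and 105 CPM and 46.03, 31.8, 32.8, 49.2 and 42.8 CPM, and NDUFS5, of complex I, had 79.7, 75.3, 72.3, 72.5 and 74.3 CPM and 53.3, 27.9, 25.98, 43.96 and 39.98 CPM. All groups were apart. The exceptions were MRPS6, which rose by 0.93 ± 0.12, NDUFC2, which rose by 0.85 ± 0.11, and ATP5F1E, which had 3.10 to 4.22 CPM and 8.33 to 13.96 CPM. Genes encoded by the mitochondrial genome were not analysed here.

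Genes of cholesterol and fatty acid synthesis fell, but not evenly. Of 32 tested, 15 were lower and none higher (median -0.51), and 6 were lower without overlap. HMGCS1, an early enzyme of the mevalonate pathway, had 352, 318, 232, 254 and 244 CPM and 218, 94.2, 71.1, 137 and 139.9 CPM. Replicate 1 at 7 d came near the range of 24 h and replicate 3 was the lowest. The list median relative to the controls was -0.05, -0.72, -1.26, -0.69 and -0.63 at 7 d, and the count of lower genes was 23 without replicate 1 of 7 d, 8 without replicate 3 of 7 d and 9 without replicate 1 of 24 h. FADS1, a fatty acid desaturase, and CYP51A1, of sterol synthesis, fell (-0.83 ± 0.12 and -0.70 ± 0.15).

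Glycolysis and hypoxia genes had 10 falls and 2 rises among 32 (median -0.36). ALDOC, the aldolase of brain, had 41.5, 29.5, 24.6, 28.6 and 28.6 CPM and 15.9, 7.88, 6.81, 9.42 and 8.76 CPM; HK2, hexokinase 2, had 131, 133, 84.3, 86.8 and 83.4 CPM and 56.6, 29.96, 36.99, 35.6 and 42.6 CPM; and PFKP, a phosphofructokinase, had 94.2, 79.99, 79.1, 80.2 and 82.6 CPM and 31.9, 32.2, 33.5, 35.1 and 29.6 CPM. BNIP3L, a mitophagy receptor, rose by 0.84 ± 0.12. Of 53 proteasome and chaperone genes 15 were lower and none higher (median -0.38), led by PSMB6 of the proteasome core, HSPD1, the mitochondrial chaperonin, and HSPA5, the chaperone of the endoplasmic reticulum, at -0.94, -0.87 and -0.78.

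Of 39 tRNA synthetases and ATF4 target genes, 7 were higher and 10 lower (median -0.28). The higher share, 17.9%, was near the 17.5% of all tested genes, and the lower share, 25.6%, was above their 14.4%. CHAC1, a glutathione-degrading enzyme, had 5.79, 6.33, 5.07, 4.74 and 5.92 CPM and 27.4, 20.8, 17.3, 16.2 and 17.4 CPM, SLC7A11, the cystine transporter, had 9.14, 12.03, 9.29, 10.5 and 9.94 CPM and 28.6, 37.5, 33.2, 24.2 and 30.5 CPM, and ASNS, asparagine synthetase, rose by 1.54 ± 0.23. ATF3, a stress-induced transcription factor, and SLC7A5, a leucine transporter, fell (-0.94 ± 0.16 and -0.83 ± 0.13).

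Lysosome and autophagy genes moved little as a list, with 10 of 60 higher, 1 lower and a median of 0.14, although 23 were higher without overlap. GABARAPL1, an autophagosome protein of the ATG8 family, had 11.8, 11.8, 13.03, 14.9 and 13.2 CPM in the controls, 20.6, 23.2, 23.4, 24.1 and 23.3 CPM at 24 h and 64.5, 71.5, 58.7, 62.7 and 65.9 CPM at 7 d. Its groups were narrow and clear of each other at each step (1.48 ± 0.07, adjusted p = 9.39e-10, edgeR). MAP1LC3A, of the same family, and NPC2, a lysosomal cholesterol carrier, rose by 1.05 ± 0.16 and 1.321 ± 0.24, and CTSH, a cathepsin, fell by 1.45 on the log2 scale.

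Immediate early genes, which answer to growth factor and calcium signals, had 8 rises and 3 falls among 26 (median 0.32). EGR1 had 36.01, 39.2, 30.9, 24.8 and 27.6 CPM at 24 h, overlapping the controls, and 179, 141, 64.6, 129 and 153 CPM at 7 d (2.06 ± 0.22, adjusted p = 1.73e-06, edgeR). FOS had 1.80, 1.14, 2.23, 1.28 and 1.601 CPM and 6.19, 8.48, 4.58, 6.07 and 6.83 CPM, and EGR2 had 0.0499 to 0.157 CPM and 0.799 to 2.15 CPM. MYC, low in this MYCN-amplified line, had 0.0499, 0.472, 0.302, 0.279 and 0.340 CPM and 1.07, 4.48, 2.90, 1.81 and 1.65 CPM. In each of them all 5 libraries at 7 d were above all at 24 h. NR4A2, a nuclear receptor of dopamine neurons, fell by 1.34 on the log2 scale.

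Interferon and antigen presentation genes fell: 12 of 29 were lower and 3 higher (median -0.44). Most are low in this line. BST2 (tetherin) had 2.40, 0.825, 2.05, 1.62 and 1.79 CPM and 0.189, 0, 0.0420, 0.284 and 0.220 CPM, USP18, which dampens interferon signalling, had 1.35, 1.89, 1.63, 2.17 and 1.99 CPM and 0.316, 0.270, 0.294, 0.681 and 0.386 CPM, and IFI35 had 1.26 to 2.62 CPM and 0.379 to 0.883 CPM. STAT2, a transcription factor of the interferon response, rose by 0.70 ± 0.16. The count of higher genes was 5 without replicate 1 of 24 h or without replicate 3 of 7 d, and the median was -0.171 without replicate 4 of 24 h, -0.202 and -0.293 without replicates 3 and 5 of 24 h, and -0.228 without replicate 1 of 7 d.

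Lists tied to senescence and to growth factors had calls in both directions. Of 21 secreted factors of senescent cells, 5 were higher and 6 lower (median -0.24, which was -0.153 without replicate 5 of 24 h, -0.125 with close libraries summed and 0 with no filter on low counts); the count of higher genes was 3 without replicate 2 of 24 h or without replicate 3 of 7 d. IGFBP7 rose from 13.1, 12.9, 10.6, 8.59 and 11.3 CPM to 41.4, 20.03, 35.5, 59.6 and 58.3 CPM and LIF fell from 1.03 to 2.01 CPM to 0.162 to 0.681 CPM.

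Of 23 growth factor receptors, 5 were higher and 4 lower (median 0.13, which was -0.0329 without replicate 5 of 24 h and 0.0151 without replicate 3 of 7 d). FGFR1 rose from 150.3, 151, 156, 164 and 158 CPM to 289, 287, 243, 251 and 258 CPM, FGFR4 fell from 8.29, 6.13, 6.70, 6.91 and 6.55 CPM to 3.16, 1.84, 1.51, 1.76 and 1.597 CPM, and GFRA2, a coreceptor of RET for neurturin, fell from 41.5, 35.6, 87.9, 90.5 and 86.9 CPM to 13.6, 16.6, 23.5, 28.6 and 22.7 CPM. At 24 h replicates 1 and 2 of GFRA2 were well below the other 3. Among 24 neurogenic and Notch factors 2 were higher (5 without replicate 1 of 7 d) and 4 lower (median -0.14, which was -0.08 without replicate 3 or 5 of 24 h and -0.081 without replicate 1 of 7 d), among them DLL3, a Notch ligand, which fell from 84.6, 56.6, 59.1, 60.4 and 66.98 CPM to 35.6, 21.1, 39.7, 32.2 and 32.1 CPM, and ID3, an inhibitor of proneural factors, which fell from 137 to 169.7 CPM to 71.6 to 105 CPM.

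Matrix and mesenchymal genes were also mixed. Of 37 matrix and integrin genes, 9 were higher and 6 lower (median 0.15, which was 0.0463 without replicate 2 of 7 d and 0.0836 without replicate 2 of 24 h). AGRN, agrin, a proteoglycan of synapses, rose from 49.4, 40.2, 63.4, 67.8 and 63.6 CPM to 116, 179.6, 184, 169 and 159.6 CPM, COL3A1 rose from 0.999, 0.747, 0.241, 0.669 and 0.534 CPM to 2.40, 6.91, 4.29, 1.99 and 2.15 CPM, and NID2 (nidogen 2; -2.98 in place of -2.34 without replicate 1 of 7 d) and HSPG2 (perlecan, -1.80 ± 0.11) fell. Of 22 mesenchymal identity genes, 3 were higher and 4 lower (median -0.31, which was -0.162 with no filter and -0.181 in a fit of the 10 libraries alone). FN1, fibronectin, had 36.1, 32.5, 28.3, 29.4 and 27.6 CPM and 62.6, 220.3, 149, 60.6 and 67.7 CPM, with replicates 2 and 3 highest at 7 d, and ZEB1, a factor of mesenchymal transition, had 118, 122, 122, 122 and 122 CPM and 199, 288, 289, 224 and 229.7 CPM.

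VIM, vimentin, and LGALS1, galectin 1, fell from 341, 339, 551, 554 and 554 and 91.2, 81.4, 122, 114 and 121 CPM to 201, 246, 409, 327 and 293 and 47.4, 15.6, 14.3, 42.03 and 44.9 CPM. VIM overlapped between the groups and lost its call with close libraries summed (adjusted p = 0.113, edgeR). SNAI2 was not called (-0.91 ± 0.46, adjusted p = 0.0995, edgeR), but was called lower without replicate 1 of 24 h or without replicate 3 of 7 d, with the replicate block and by DESeq2. The count of lower mesenchymal genes was 7 without replicate 2 or without replicate 3 of 7 d, 8 with the replicate block and 2 with close libraries summed, and the count of higher ones 5 without replicate 1 of 7 d.

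Some markers of other cell types were called. Of 17 fibroblast, endothelial, blood and epithelial markers in the counts, 11 were tested, and 5 of them (45.5%, against 17.5% of all tested genes) were higher and 2 lower. The median was -0.03, and 0.243 with close libraries summed, where 3 were higher and 1 lower. The higher ones were COL3A1, DCN, LUM, the epithelial adhesion gene EPCAM, which went from 0.300, 0.157, 0.663, 0.669 and 0.728 CPM to 0.758, 2.38, 2.98, 2.21 and 2.20 CPM, and the keratin KRT18 (1.17 ± 0.45). The lower ones were COL1A1 and the macrophage marker CD68. Summed over the list, levels were 717 to 847 CPM in the controls, 750.2 to 915.5 CPM at 24 h and 806 to 1142 CPM at 7 d. The defining blood markers CD3E and PTPRC (CD45) were at 0 in every library at 7 d, PECAM1 was at most 0.042 CPM and KDR at most 0.108 CPM there, while CDH5, of endothelial junctions, reached 1.46 CPM and CD14, of monocytes, was at 0.756 to 1.52 CPM. THY1 and PDGFRB were at 503 to 579.8 CPM and 57.1 to 104 CPM at 7 d and were not called. DCN, decorin, and LUM, lumican, small proteoglycans named as fibroblast markers, were measured in every library of this line: DCN had 21.7, 26.7, 23.7, 21.97 and 23.7 CPM and 75.3, 122, 64.4, 68.1 and 74.6 CPM, and LUM had 176, 207, 121, 116 and 116 CPM and 369.8, 302, 160.02, 221 and 236 CPM. LUM overlapped between the groups and lost its call with close libraries summed (adjusted p = 0.0902, edgeR). The part of other cell types in these values was not tested. Of 8 tested glial and Schwann genes 3 were lower and none higher (median -0.19, and -0.79 to -0.047 with each library left out in turn), and MBP, FOXD3 and CDH19 were under 1 CPM in all libraries.

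The late change of SK-N-BE(2)C was then set against the change between 24 h and 5 d in the other lines, in a fit of all 45 libraries over 16282 genes. Because the times are 7 d and 5 d, line and time cannot be told apart. The late change differed from that in IMR-32 in 3471 genes (21.3%), above it in 1947 (12%) and below it in 1524 (9.36%). It differed from that in SH-SY5Y in 2595 genes (15.9%), above in 1443 (8.86%) and below in 1152 (7.08%). In 1251 genes (7.68%) it differed from both with the same sign.

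**Figure D4:**
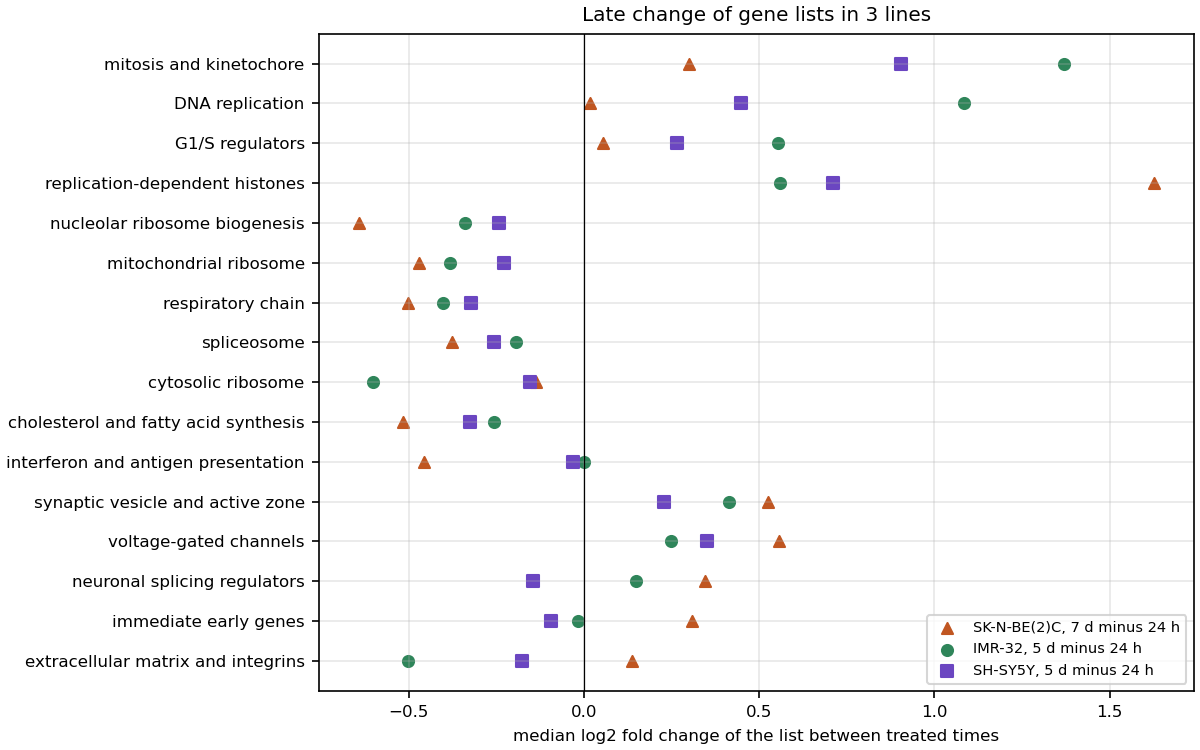
Median log2 fold change between the treated times for 16 gene lists in SK-N-BE(2)C (7 d minus 24 h, triangles), IMR-32 (5 d minus 24 h, circles) and SH-SY5Y (5 d minus 24 h, squares), from the fit of 45 libraries. For the mitosis and replication lists SK-N-BE(2)C is the lowest of the 3 lines, at 0.30 and 0.02, and for histones the highest, at 1.63.

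Several lists held more genes that differed between lines than the shares above. In the fit of 45 libraries mitosis genes had a median of 0.30 here, 1.37 (IMR-32) and 0.91 (SH-SY5Y), and single genes lay below the other line in 41 of 62 cases for IMR-32 and in 19 for SH-SY5Y, never above. For DNA replication the medians were 0.02, 1.08 and 0.45, with 44 of 59 genes below IMR-32 and 12 below SH-SY5Y. Histones went the other way, with 8 of 24 genes above IMR-32 and 5 above SH-SY5Y and none below. Nucleolar genes had medians of -0.34 (IMR-32) and -0.24 (SH-SY5Y) and synaptic genes of 0.42 and 0.23, the same sign as here. Matrix and integrin genes lay above IMR-32 in 16 of 37 cases and below it in 4. Against SH-SY5Y, 12 of 26 immediate early genes, 8 of 17 neuronal splicing regulators and 15 of 46 cytoskeletal genes lay above and 1, 1 and none below; against IMR-32 the same lists had 5, 4 and 3 genes above and 1, 1 and 8 below. Cytosolic ribosomal proteins had a median of -0.14 here and -0.60 in IMR-32, and 30 of 75 of these genes lay above IMR-32 and none below.

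The 6 genes with the largest difference above both lines were OLFML2B, CHRD, C2CD4C, SHC2, GJD2 and SSTR2. OLFML2B had a late change of -0.25 for IMR-32 cells and 0.08 for SH-SY5Y cells, where it stayed at 0.23 to 0.44 and 0.53 to 1.34 CPM at 5 d, a difference of 4.85 ± 0.55 and 4.52 ± 0.48 (SE; adjusted p = 9.05e-09 and 8.02e-09, edgeR). SHC2 was already at 118 ± 32.8 CPM in IMR-32 and 50.6 ± 7.44 CPM in SH-SY5Y at 24 h (mean ± SD), against 44.3 to 62.8 CPM in SK-N-BE(2)C at 7 d. GJD2, connexin 36 of electrical synapses, rose here from 15.2, 16.9, 12.6, 13.2 and 11.98 CPM to 51.8, 66.5, 33.6, 40.3 and 45.5 CPM and was under 1 CPM in every library of the other lines, and SSTR2, a somatostatin receptor, rose here from 15.7, 20.7, 36.1, 32.7 and 34.001 CPM to 57.2, 134, 205, 96.8 and 90.5 CPM while its late change was -0.99 for IMR-32 cells and -1.13 for SH-SY5Y cells. In IMR-32, SSTR2 stood at 672 ± 309 CPM at 24 h and 356 ± 299 CPM at 5 d (mean ± SD). In SH-SY5Y it was at 12.5 ± 4.69 and 5.93 ± 1.20 CPM at these times.

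The 6 largest differences below both lines were in MISP, MGAT4C, NT5DC3, RAB27B, NXPH2 and CNTNAP2. MGAT4C, a glycosyltransferase, was not called here (-0.16 ± 0.12, adjusted p = 0.239, edgeR) while it rose by 3.56 (IMR-32) and 2.38 (SH-SY5Y). RAB27B, a GTPase of secretory granules, fell here from 14.9, 20.6, 17.5, 17.6 and 19.4 CPM to 5.68, 3.83, 6.18, 11.003 and 9.20 CPM, against 1.48 for IMR-32 cells and 1.15 for SH-SY5Y cells, the last not called. CNTNAP2, an adhesion protein of axons, fell here from 114, 129, 85.1, 85.4 and 84.7 CPM to 46.2, 16.95, 15.3, 16.6 and 14.5 CPM, with replicate 1 at 7 d apart from the other 4, and had late changes of 0.26 and 0.17 in the others. NT5DC3 and NXPH2 fell here (-2.39 ± 0.16 and -2.51 ± 0.34). Against SH-SY5Y the difference was not called without replicate 1, 2 or 3 for MISP, without replicate 3 for RAB27B and without replicate 3 or 4 for NXPH2; MISP and NXPH2 reached at most 0.209 and 0.531 CPM in treated libraries of SH-SY5Y.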

How the data were processed

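RNA was poly(A)-selected, made into directional libraries and sequenced in paired ends. The authors trimmed the reads at a phred score of 20 and aligned them to hg19 with STAR, whose quantMode option gave the read counts per gene that they deposited, unnormalised, for each library. The submitters' processing notes name Trim Galore 0.6.4, STAR 2.6.1d and DESeq2 1.32.0. Which strand was counted is not stated in these sources.

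The counts of the 15 libraries of SK-N-BE(2)C were filtered with filterByExpr (minimum count 10, minimum total 15, share of libraries 0.7), scaled by TMM and fitted with edgeR 4.0.16 in R 4.3.3 by robust quasi-likelihood, with 7 d minus 24 h as the contrast; the SE is the fold change divided by the root of F. The controls enter the fit for the spread and the filter; without them 13779 genes were tested. All 45 libraries were fitted for the difference between lines. DESeq2 1.42.0, other scalings, no filter, a replicate block, summed close libraries and each library left out were alternatives. The code was tested on simulated data. Names and positions came from GENCODE on GRCh37, with 25637 of 29159 symbols matched, and promoters from RefSeq on GRCh38.p14, with 10018 of the tested genes matched.

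Members and lists were chosen with earlier results of these data known. Genes named are the 12 largest rises and falls without overlap and with at least 5 CPM in the higher group, up to 3 in each direction per list at 1 CPM, cell type markers, members of the adrenergic circuit and G1/S lists, and the 6 largest differences from both other lines in each direction. SYP, SYN1, SYT1, NPY, KIF20A, MKI67, H2BC21, H1-2, H4C8, H2AC6, FOS, PALM and PLPPR3 were chosen after their values were seen. Results on a few genes and 1 gene list are not reported here.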

Additional observations from a re-analysis of the deposited data

Results flagged for a closer look

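Single libraries stood apart from the other 4 of their group, by Dixon's criterion, in 26 of 342 gene groups and 3 of 66 list groups examined; chance marks about 1 group in 20. They were replicate 1 of 7 d in 8 gene groups, replicate 2 of 7 d in 4, and replicates 1 and 2 of 24 h in 5 each, list groups included.

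In replicate 1 of 7 d, CDKN1A was at 28.3 CPM, CNTNAP2 at 46.2, NID2 at 4.29, ALDOC at 15.9, ATF3 at 8.52 and FGFR4 at 3.16, all above the other libraries at 7 d. In the same library ZCCHC12, at 13.2 CPM, and TP53INP1, at 52.8 CPM, were below them. Replicate 2 of 7 d was high in DCN, at 122 CPM, SYT1, at 1032 CPM, SKA1, at 11.2 CPM, and FREM1, at 3.4 CPM. SEMA3D was low in replicate 3 of 7 d, at 6.77 CPM, and replicate 4 of 7 d was high in TNC, at 0.737 CPM, and USP18, at 0.681 CPM.

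At 24 h, replicate 1 was high in PFKP (94.2 CPM), PALM (40.5 CPM) and PLPPR3 (9.39 CPM) and low in GABARAPL1 (20.6 CPM) and ZEB1 (118 CPM). Replicate 2 was high in HSPA5 (1199 CPM) and RB1 (119 CPM) and low in SLC8A1 (10.5 CPM). Its spliceosome median, relative to the controls, was -0.316 and its cytosolic ribosome median 0.208. NXPH2 was low in replicate 3 (0.784 CPM), NAT10 in replicate 4 (69.8 CPM) and the neurotransmitter receptor median in replicate 5 (0.147), where CPE was high (0.437 CPM).

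The late change differed between lines, by the interaction in the fit of 45 libraries, in 3471 genes against IMR-32 and 2595 against SH-SY5Y. Above both lines, on the log2 scale and against IMR-32 and SH-SY5Y in that order, the differences were 4.85 and 4.52 for OLFML2B, 7.27 and 4.40 for CHRD, 5.58 and 3.38 for C2CD4C, 3.39 and 3.35 for SHC2, 3.12 and 3.07 for GJD2, and 3.04 and 3.18 for SSTR2. Below both, they were -5.47 and -3.66 for MISP, -3.73 and -2.55 for MGAT4C, -2.60 and -2.52 for NT5DC3, -2.83 and -2.50 for RAB27B, -3.94 and -2.44 for NXPH2, and -2.47 and -2.38 for CNTNAP2. The 7 d and 5 d times cannot be told apart from the lines.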

How the results depend on the processing

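With no limit on the fold change 8335 genes were called, 4115 higher and 4220 lower, and with glmTreat 2425, 1370 higher and 1055 lower; both differ by construction. Other scalings, DESeq2, no filter, the 10 libraries alone and close libraries summed gave 4329 to 5078 calls. Leaving out each library in turn gave 4097 (without replicate 2 of 7 d) to 4977 (without replicate 1 of 7 d). With a replicate block the fit gave 4652. Same-numbered libraries at 24 h and 7 d correlated at 0.0482 to 0.478. Not all libraries at 24 h had their best match at 7 d in their own number, so the numbers were not taken as pairs. Leaving out a replicate number moved the calls against SH-SY5Y between 1705 and 2674, with 935 to 1464 above it (lowest without replicate 3), and those against IMR-32 between 2536 and 3882; the cause was not tested. Without the filter 46.8% of the calls against IMR-32 were above it, in place of 56.1%. The sign turned for TH without replicate 2 of 7 d (0.0107, with -0.32 to 0.0107 over all libraries left out in turn), and for these list medians: with close libraries summed, G1/S (-0.0233), DNA replication (-0.0516), the adrenergic circuit (-0.00568) and the fibroblast, endothelial and blood markers (0.243); with no filter, DNA replication (-0.00735) and glial genes (0.40); without replicate 1 of 7 d, G1/S (-0.0112) and the catecholamine list (-0.0593); without replicate 2 or 3 of 7 d, the retinoid list (-0.00903 and -0.0803); without replicate 5 of 24 h, growth factor receptors (-0.0329); and without replicate 1 or 2 of 24 h or replicate 3 of 7 d, the same marker list (0.00574 to 0.0505). With a replicate block the growth factor receptor median was 0.00094. With each library left out in turn the medians ran from -0.0112 to 0.193 for G1/S, 0.00315 to 0.0968 for DNA replication, 0.19 (without replicate 1 of 7 d) to 0.406 for mitosis, 0.0112 to 0.153 for the adrenergic circuit and -0.191 (without replicate 3 of 7 d) to -0.0916 for cytosolic ribosomal proteins. With close libraries summed they were 0.164 for mitosis, 0.102 for the catecholamine list and -0.174 for interferon genes, and with no filter -0.206 for the last and -0.0342 for neurogenic factors; 8 mitosis genes were then higher. Of 160 called genes examined singly, 15 lost their call under some alternative other than glmTreat and 21 under glmTreat. Genes at a few CPM rest on few counts, which limits their fold changes most.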

Other observations

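Called genes differed in size. Among tested protein-coding genes, median exonic length was 5.719 kb in 1919 higher genes, 4.665 kb in 1889 lower genes and 5.505 kb in all 12293. With these protein-coding genes cut into 5 bins of equal number by exonic length, 21.5% were called lower in the bin of the shortest and 10.9% in that of the longest. By span, 19.8% were called higher in the bin of the longest. These are shares of genes, which are not replicates.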
